A study of Mus musculus with 24 samples.

Results

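Gene expression in the retinal pigment epithelium (RPE) of mice labelled Per1-/-Per2Brdm1 was compared with that of wild type mice at circadian time (CT) 22, shortly before subjective dawn. The comparison takes every library whose title gives this time, 6 of the 24 libraries of the series, of which 3 are labelled knockout and 3 are wild type. The series asks whether Per1 and Per2 set the daily rhythm with which the RPE takes up photoreceptor outer segments. All were males aged 6 weeks of the cross C57BL/6/J x 129 SvEvBrd, their eyes were snap-frozen, and the RPE was cut out by laser capture. Labelled knockout replicate 1and4 is a pool of 2 eyes, and labelled knockout replicates 2 and 3 and wild type replicates 1, 3 and 6 are single eyes. The labels name no promoter or Cre driver that would confine the altered alleles to 1 tissue, and no treatment. Whether every library is from its own animal is not stated. The p-values of the gene tests reflect how far libraries spread within the 8 groups of genotype and time of the whole series, not these 6 alone.

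In the mammalian clock, the activators CLOCK and BMAL1 (gene Arntl) bind E-box sequences and drive the genes of their own repressors, the PER and CRY proteins. A second loop runs through the REV-ERB receptors (Nr1d1, Nr1d2), which repress Arntl, and through the D-box factors DBP, TEF, HLF and NFIL3. The RPE is a single pigmented layer behind the photoreceptors that recycles retinoids, transports ions and water, and engulfs shed outer segment tips in a daily burst. It lies between rod outer segments and the choroid, so a laser cut can carry material of either neighbour.

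Raw counts per library ran from 16245067 to 28858797 at CT22. Values below are CPM, counts scaled by TMM to a common library size, in the order labelled knockout 1and4, 2 and 3, then wild type 1, 3 and 6. Rod genes took 5.33, 11.04 and 3.52% of the scaled counts in the labelled knockout libraries and 2.46, 4.54 and 2.11% in wild type. Labelled knockout replicate 2 therefore stood apart, and it also lay farthest out on the first principal component of the 6 libraries, which held 45.4% of the variance. RPE genes were present in all 6 libraries, with 1 exception. Rpe65, the retinoid isomerase of the visual cycle, stood at 4270.0, 3923 and 6764 CPM in the labelled knockout libraries and at 4862, 4459 and 6265 CPM in wild type. Best1, a chloride channel gene of the RPE, was under 1 CPM in each and had 0 counts in at least 1.

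Per1 and Per2, the altered genes, had higher counts in the libraries labelled knockout. Per1, ENSMUSG00000020893 at chromosome 11, 69095217 to 69109960, plus strand, stood at 176, 114.6 and 88.3 CPM in the labelled knockout libraries and at 45.4, 46.8 and 24.4 CPM in wild type. Per2, ENSMUSG00000055866 at chromosome 1, 91415982 to 91459324, minus strand, stood at 142, 76.5 and 98.5 CPM in the labelled knockout libraries and at 15.8, 10.8 and 27.8 CPM in wild type. The groups did not overlap for either gene. Per1 rose by log2 1.70 (SE 0.32) and Per2 by log2 2.54 (SE 0.32), with adjusted p of 0.0201 and 0.000213 (quasi-likelihood test of edgeR, Benjamini-Hochberg adjusted over all genes tested, used throughout). The call for Per1 was lost without labelled knockout 1and4, labelled knockout 2, wild type 1 or wild type 6 (highest adjusted p 0.144), with values of log2 1.39 to 1.90 over the libraries left out. Counts over whole genes do not show which part of a gene is missing, so these 2 genes are no check of the labels. All directions given here take the labels at their word.

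Of 20275 genes tested, 46 passed an adjusted p of 0.05 at CT22 (0.227%), 36 of them higher in the labelled knockout (0.178%) and 10 lower (0.0493%). Clock genes made up 12 of the 36 raised genes. Unadjusted, 2568 genes had a p under 0.05. Of all genes 52.7% had a positive value, and the median log2 fold change was 0.03. The labelled knockout and wild type libraries did not overlap for 12.8% of all tested genes (8.01% higher, 4.79% lower), and among the 46 they overlapped only for Stard8. The number of passing genes turned on single libraries. It was 12 without labelled knockout 2, 79 without labelled knockout 1and4 and 298 without labelled knockout 3. It was 26, 80 and 13 without wild type 1, 3 and 6. With at least 5 CPM on average required, 46 genes again passed, but 27 were higher and 19 lower.

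**Figure D1:**
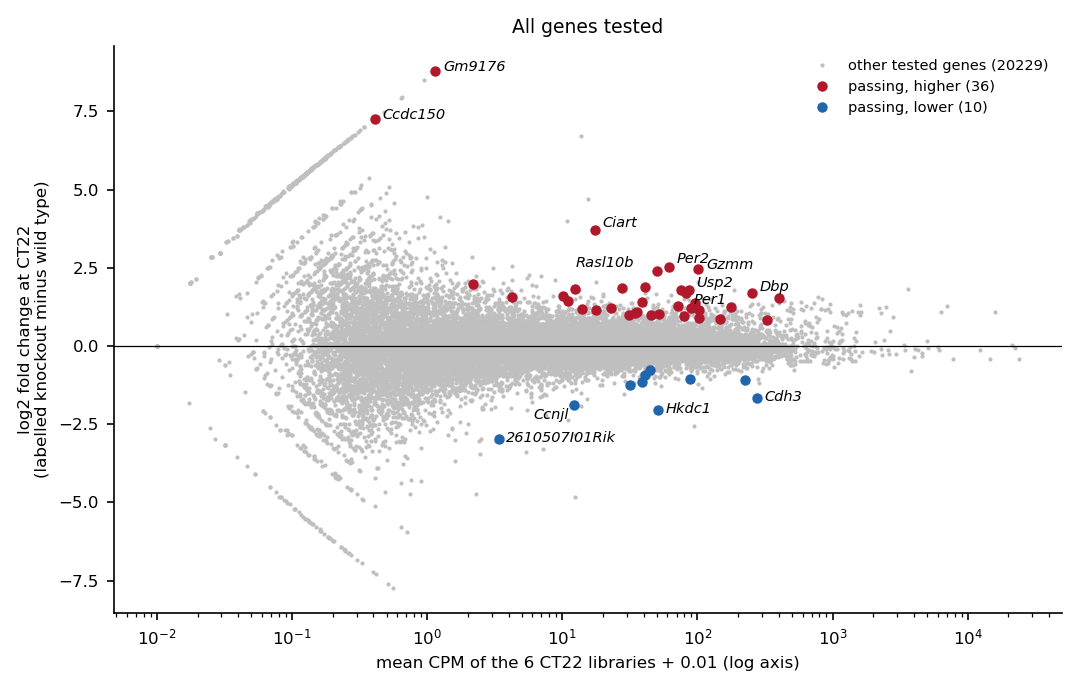
Log2 fold change at CT22 (labelled knockout minus wild type) against mean CPM plus 0.01 on a log axis, 1 point per tested gene, with the 36 raised genes in red and the 10 lowered genes in blue. Gm9176 and Ccdc150, at the top left, had 0 counts in every wild type library, so their plotted values depend on the fit and are no measured folds.

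Most clock repressor genes rose at CT22. Of 8 genes in that list (Per1, Per2, Per3, Cry1, Cry2, Ciart, Bhlhe40, Bhlhe41), 5 rose and none fell, with a median of log2 1.10. The 5 include the altered genes Per1 and Per2, which also enter the median and the sum that follows. The others are Per3, Cry2 and Ciart. The summed CPM of the list was 1013, 771 and 790.2 in the labelled knockout and 432, 443 and 466 in wild type, without overlap. Ciart encodes a protein that binds and represses the CLOCK and BMAL1 pair, and it had the largest fitted rise among passing genes with counts in both groups. It was at 44.2, 22.9 and 30.1 CPM in the labelled knockout libraries and at 2.36, 1.75 and 3.29 CPM in wild type. All labelled knockout libraries lay above all wild type libraries (log2 3.71, SE 0.42, adjusted p 8.49e-05; edgeR). Cry2, which encodes a cryptochrome repressor, stood at 106, 115.2 and 93.1 CPM in the labelled knockout libraries and at 53.7, 48.7 and 58.8 CPM in wild type and rose by log2 0.97 (edgeR adjusted p 0.00994). Per3, another Period gene, stood at 185, 99.5 and 93.4 CPM in the labelled knockout libraries and at 51.8, 47.4 and 62.5 CPM in wild type and rose by log2 1.22 (edgeR adjusted p 0.0413).

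The calls for Ciart and Per2 held whichever of the 6 libraries was left out. Cry2 no longer passed without labelled knockout 2 (log2 0.89, edgeR adjusted p 0.0804) or without wild type 1. With 1 library left out, Per3 passed only without labelled knockout 3. Over the libraries left out, Per3 took log2 0.84 to 1.40 (highest edgeR adjusted p 0.133). Cry1, the other cryptochrome gene, stood at 48.2, 80.5 and 49.6 CPM in the labelled knockout libraries and at 24.9, 38.1 and 28.9 CPM in wild type and did not pass (log2 0.96, adjusted p 0.098; edgeR), although its groups did not overlap. Bhlhe41, which encodes an E-box-binding repressor, stood at log2 0.51 with an edgeR adjusted p of 0.169, and its relative Bhlhe40 at log2 -0.03 (0.968). DESeq2 called Cry1 and Bhlhe41 as well, 7 of the 8 repressor genes, and limma voom called 3.

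Both REV-ERB genes rose, and Rora and Rorb, for receptors that act on the same sites, did not pass. Nr1d2 (REV-ERB beta) was at 143, 159.6 and 122.6 CPM in the labelled knockout libraries and at 58.7, 55.8 and 78.7 CPM in wild type (log2 1.14, SE 0.15, adjusted p 0.000213; edgeR). Nr1d1 (REV-ERB alpha) was at 190.1, 206 and 168 CPM in the labelled knockout libraries and at 102, 110.8 and 100 CPM in wild type (log2 0.85, SE 0.15, adjusted p 0.00804; edgeR). The highest wild type library lay below the lowest labelled knockout library for both. Nr1d1 lost its call without wild type 6 (edgeR adjusted p 0.0743), and it overlaps Thra on the opposite strand, so its counts are uncertain to that extent. Rora and Rorb, whose products activate Arntl, stood at log2 0.46 and 0.53, and Rorb turned negative with a rod covariate.

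Among the D-box factors, Dbp and Tef rose. Dbp, an output transcription factor, stood at 326, 360.0 and 479 CPM in the labelled knockout libraries and at 137, 94.9 and 127.6 CPM in wild type. Each labelled knockout library held more than the highest wild type library (log2 1.70, SE 0.21, edgeR adjusted p 0.000176), and the call held without any 1 library. Dbp overlaps Sphk2 on the opposite strand, so its counts are uncertain to that extent. Tef, a related activator, stood at 429.8, 415 and 419 CPM in the labelled knockout libraries and at 213, 221 and 270.4 CPM in wild type (log2 0.84, SE 0.16, adjusted p 0.0144; edgeR), and passed no longer without labelled knockout 2, wild type 1 or wild type 3 (log2 0.78 to 0.96; highest edgeR adjusted p 0.0973). Hlf, the third activator of this family, was at log2 0.54 (edgeR adjusted p 0.252). Nfil3 encodes the repressor at the same sites and was lower in each labelled knockout library, at 9.28, 8.27 and 8.33 CPM in the labelled knockout libraries and at 16.5, 20.2 and 14.99 CPM in wild type. It did not pass (log2 -1.00, edgeR adjusted p 0.0734), while DESeq2 called it as lower.

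Of the 16 genes for kinases, ligases and other proteins that modify clock proteins, 1 rose. This was Usp2, which encodes a deubiquitinase of clock and other proteins, at 136, 156 and 114.6 CPM in the labelled knockout libraries and at 36.4, 53.8 and 27.4 CPM in wild type (log2 1.79, SE 0.24, adjusted p 0.000213; edgeR). Its groups did not overlap, and the call held without any 1 library. The kinase genes Csnk1d and Csnk1e stood at log2 -0.04 and 0.02 with edgeR adjusted p of 0.944 and 0.981. Of 12 tested output genes, 2 rose. Tsc22d3, which encodes a glucocorticoid-induced leucine zipper protein, stood at 56.6, 54.2 and 71.7 CPM in the labelled knockout libraries and at 34.0, 26.1 and 30.9 CPM in wild type (log2 1.00, SE 0.18, adjusted p 0.00994; edgeR). Coq10b, which encodes a coenzyme Q binding protein, stood at 16.2, 21.99 and 20.1 CPM in the labelled knockout libraries and at 6.94, 10.1 and 8.93 CPM in wild type (log2 1.17, SE 0.22, adjusted p 0.013; edgeR). Neither gene's groups overlapped. Tsc22d3 lost its call without wild type 6 (edgeR adjusted p 0.0743), and Coq10b without labelled knockout 2, wild type 1 or wild type 6 (highest edgeR adjusted p 0.128). The output genes Wee1, Klf9 and Cdkn1a stood at log2 0.74, 0.60 and -1.27 and did not pass.

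**Figure D2:**
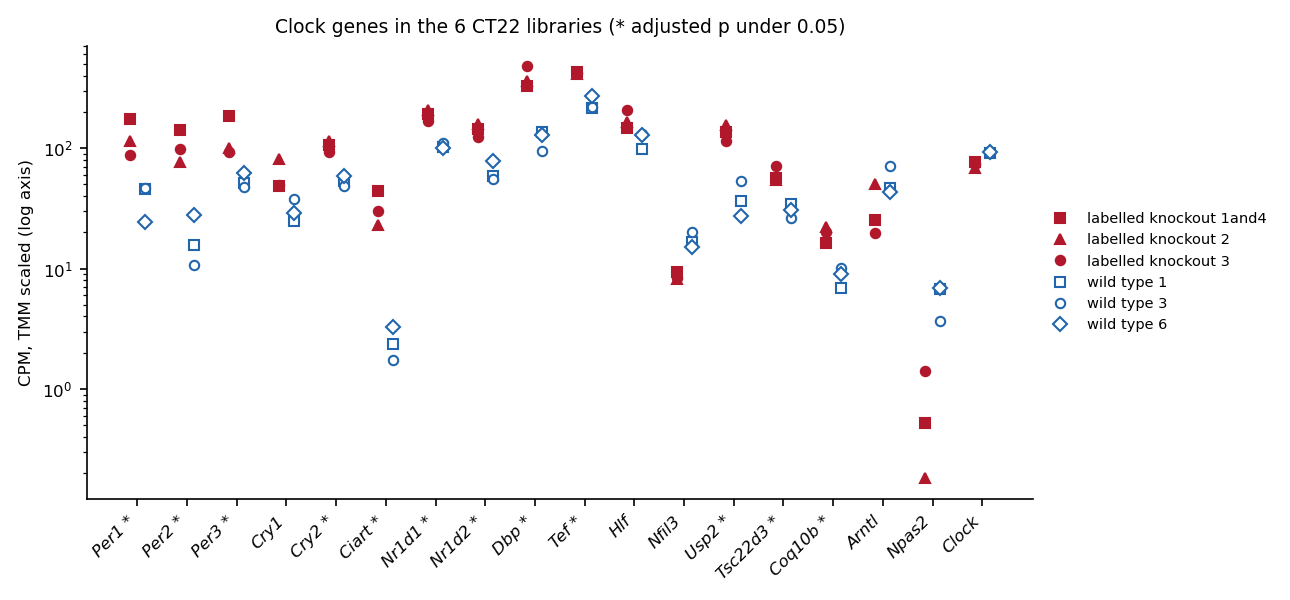
CPM on a log axis of 18 clock genes in the 6 CT22 libraries, labelled knockout filled red and wild type open blue, with marker shape giving the replicate and an asterisk an edgeR adjusted p under 0.05. The groups separate for Per1 through Clock except at Arntl, where labelled knockout 2 lies above wild type 1 and 6.

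Of the 4 activator genes, 3 had a negative value, each with an unadjusted p under 0.05, and 0 passed edgeR's test, DESeq2 or limma voom. Arntl was at 25.2, 50.02 and 19.9 CPM in the labelled knockout libraries and at 46.3, 70.5 and 43.0 CPM in wild type. Labelled knockout 2, the library with the most rod RNA, lay above wild type 1 and 6, while the other labelled knockout libraries lay below every wild type library (log2 -0.75, SE 0.31, adjusted p 0.309; edgeR). Without labelled knockout 2 Arntl was at log2 -1.24 (edgeR adjusted p 0.338). With the rod score of each library, the mean log2(CPM + 1) of the 24 rod markers, as a covariate it was at log2 -1.61 and passed (edgeR adjusted p 0.000936), as did 2 other genes outside the 46, Gm48581 (log2 -2.38) and Stc1 (log2 1.98). Npas2, a paralogue of Clock, stood at 0.519, 0.182 and 1.42 CPM in the labelled knockout libraries and at 6.72, 3.64 and 6.95 CPM in wild type (log2 -3.02, adjusted p 0.142; edgeR). Clock itself was at log2 -0.33 (edgeR adjusted p 0.384). In such bulk samples, fewer cells of a type and less RNA per cell cannot be told apart.

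Promoters of the passing genes were searched for the E-box and D-box letters, since both are the sites named above for the clock's own factors. RefSeq windows of 250 bases before to 50 bases after a transcription start (GRCm38.p6) were at hand for 36 of the 46 genes. The E-box CACGTG, the same on both strands, stood in a window of 7 of 28 raised genes (25.0%) and 0 of 8 lowered genes. Among all 27025 genes with a window, tested here or not, the share was 8.09%. A gene counted if any of its windows held the letters. By window, the E-box stood in 20.5% of 39 windows of raised genes and 7.15% of all 32851. Split by list, the 7 raised genes were 4 of 11 raised clock genes (36.4%) and 3 of 17 other raised genes (17.6%). The D-box TTATGTAA, searched on both strands, stood in 3 of 28 raised genes (10.7%) and 0 of 8 lowered genes, against 1.11%. By the same split these were 2 of 11 raised clock genes (18.2%) and 1 of 17 others (5.88%). The D-box TTACGTAA stood in 0 of these genes, against 0.126% of all, and the E-box variant CACGTT, searched on both strands and left in lower case, in 2 raised genes (7.14%), against 5.44%. Matches may overlap, and each motif was counted on its own. Such a match describes letters in a window and is no evidence of binding. The 6 raised genes with the lowest p whose window holds CACGTG or TTATGTAA are printed 5′ to 3′ on the strand of the gene, with those motifs in capitals (TTACATAA is TTATGTAA read on the opposite strand), because they put the letters beside the rises above.
Ciart, chr3:95882179-95882478, minus strand: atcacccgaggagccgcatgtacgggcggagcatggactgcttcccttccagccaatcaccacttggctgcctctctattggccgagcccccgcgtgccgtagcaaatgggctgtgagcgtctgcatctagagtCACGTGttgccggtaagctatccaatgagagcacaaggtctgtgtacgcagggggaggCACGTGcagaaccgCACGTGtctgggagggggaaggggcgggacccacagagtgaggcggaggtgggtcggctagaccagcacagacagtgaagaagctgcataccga
Gzmm, chr10:79693576-79693875, plus strand: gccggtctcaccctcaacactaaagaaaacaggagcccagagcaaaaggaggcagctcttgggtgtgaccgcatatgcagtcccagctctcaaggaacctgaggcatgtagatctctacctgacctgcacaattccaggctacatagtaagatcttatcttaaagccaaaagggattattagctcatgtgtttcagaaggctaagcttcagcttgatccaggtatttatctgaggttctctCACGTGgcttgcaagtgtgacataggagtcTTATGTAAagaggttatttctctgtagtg
Coq10b, chr1:55052520-55052819, plus strand: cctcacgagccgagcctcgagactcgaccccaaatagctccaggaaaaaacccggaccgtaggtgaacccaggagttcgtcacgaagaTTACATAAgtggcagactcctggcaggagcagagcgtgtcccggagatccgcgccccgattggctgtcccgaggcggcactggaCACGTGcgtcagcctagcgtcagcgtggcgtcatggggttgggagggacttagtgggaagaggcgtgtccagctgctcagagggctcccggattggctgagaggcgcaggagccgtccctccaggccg
Ltv1, chr10:13193088-13193387, minus strand: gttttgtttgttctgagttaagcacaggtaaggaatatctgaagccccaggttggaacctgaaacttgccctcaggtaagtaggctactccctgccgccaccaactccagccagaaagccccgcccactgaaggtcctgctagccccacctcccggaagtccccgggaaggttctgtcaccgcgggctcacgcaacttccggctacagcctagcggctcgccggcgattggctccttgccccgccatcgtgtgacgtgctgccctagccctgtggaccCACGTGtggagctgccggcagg
Tef, chr15:81802423-81802722, plus strand: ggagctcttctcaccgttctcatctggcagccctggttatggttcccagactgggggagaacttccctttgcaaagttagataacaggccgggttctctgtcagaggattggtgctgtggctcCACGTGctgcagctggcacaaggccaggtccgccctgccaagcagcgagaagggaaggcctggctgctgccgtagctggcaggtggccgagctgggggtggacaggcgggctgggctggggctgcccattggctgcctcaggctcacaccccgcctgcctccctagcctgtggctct
Per1, chr11:69098699-69098998, plus strand: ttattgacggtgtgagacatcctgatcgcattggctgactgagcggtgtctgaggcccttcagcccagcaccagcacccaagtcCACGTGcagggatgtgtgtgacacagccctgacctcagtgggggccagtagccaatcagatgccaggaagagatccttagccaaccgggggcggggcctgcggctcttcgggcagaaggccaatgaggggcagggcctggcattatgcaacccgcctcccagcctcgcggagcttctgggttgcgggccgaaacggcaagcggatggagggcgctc

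The Ciart window holds 3 E-boxes, of which the nearest begin 58 and 44 bases before the start. Gzmm has an E-box 9 bases before the start of this transcript and a D-box 21 bases after it, and its other window has neither. Coq10b has an E-box 78 bases and a D-box, read on the opposite strand, 162 bases before the start. Per1 has an E-box 166 bases before the start of the transcript printed, Tef has 1 in the window printed and 1 in its other window, and Ltv1 has 1 beginning 28 bases after it. The 2 lowered genes with the lowest p that have a window, Hkdc1 and 2610507I01Rik, hold none of these letters. They were chosen by p alone, while the raised genes printed had to hold a motif, so the printed sets are no contrast. The raised clock genes Dbp, Nr1d2, Usp2, Nr1d1 and Cry2, with lower p than Coq10b, hold neither CACGTG nor TTATGTAA in their windows. Cdh3 had no entry.
Hkdc1, chr10:62422408-62422707, minus strand: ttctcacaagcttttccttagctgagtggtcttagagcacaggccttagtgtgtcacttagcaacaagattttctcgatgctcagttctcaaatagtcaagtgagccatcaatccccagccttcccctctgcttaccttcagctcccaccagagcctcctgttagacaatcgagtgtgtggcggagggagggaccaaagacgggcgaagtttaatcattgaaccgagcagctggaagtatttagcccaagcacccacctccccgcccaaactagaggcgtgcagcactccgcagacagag
2610507I01Rik, chr11:59202382-59202681, minus strand: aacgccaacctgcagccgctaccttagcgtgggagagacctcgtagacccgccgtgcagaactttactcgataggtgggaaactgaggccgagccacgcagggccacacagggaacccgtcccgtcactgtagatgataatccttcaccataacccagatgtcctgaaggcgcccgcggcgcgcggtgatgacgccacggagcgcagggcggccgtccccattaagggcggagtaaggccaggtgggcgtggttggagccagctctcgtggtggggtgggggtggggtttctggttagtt

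Hkdc1, a member of the hexokinase family that starts glucose use, had the lowest p of all genes and fell. The gene, ENSMUSG00000020080 at chromosome 10, 62383137 to 62422491, minus strand, stood at 23.2, 15.3 and 21.7 CPM in the labelled knockout libraries and at 92.8, 85.6 and 67.9 CPM in wild type. Every labelled knockout library lay far below every wild type library (log2 -2.03, SE 0.21, edgeR adjusted p 1.29e-05). The fall held without any 1 library, from log2 -2.15 to -1.87, and was log2 -1.94 when the rod score was added to the model. Hk1 and Hk2, of the same family, did not pass. They stood at log2 0.64 and 0.48 with edgeR adjusted p of 0.382 and 0.599.

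The P-cadherin gene Cdh3, which serves adhesion between epithelial cells, also fell. It was at 122.8, 102 and 175 CPM in the labelled knockout libraries and at 418, 484 and 364 CPM in wild type (log2 -1.66, SE 0.27, adjusted p 0.00378; edgeR), with no overlap. Without labelled knockout 2 it was at log2 -1.50, and its edgeR adjusted p of 0.0508 missed the threshold. Of the 30 adhesion and junction genes, it was the 1 that fell, and Cadm1, an adhesion gene of the immunoglobulin family, was the 1 that rose. DESeq2 also called Cdh19 as lower and Cadm2 as higher in this list. The list as a whole had 24 negative and 6 positive values and a median of log2 -0.25, which was 0.19 with the rod covariate and -0.06 without labelled knockout 2.

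The other 8 lowered genes fell by between 0.78 and 2.98 on the log2 scale. 2610507I01Rik, annotated as a transcript with no coding sequence, stood at 0.980, 0.772 and 0.521 CPM in the labelled knockout libraries and at 5.02, 4.20 and 8.73 CPM in wild type (log2 -2.98). Ephb3, an ephrin receptor gene, stood at 26.6, 14.9 and 30.4 CPM in the labelled knockout libraries and at 51.1, 47.2 and 62.0 CPM in wild type (log2 -1.16), and was the 1 of 20 tested Eph and ephrin genes to pass. The voltage-gated potassium channel gene Kcna2 was at 168, 79.9 and 178 CPM in the labelled knockout libraries and at 314, 278 and 320.5 CPM in wild type (log2 -1.10). These genes separated the groups without overlap. Ccnjl, for a cyclin-like protein, fell by 1.87 on the log2 scale, Arhgef37, which encodes an exchange factor of small GTPases, by 1.23 and Scube3, for a secreted EGF-domain protein, by 1.04. Stard8, for a GTPase-activating protein, fell by 0.93 and Sphk2, for a sphingosine kinase, by 0.78. Sphk2 overlaps Dbp on the opposite strand, and no source used here gives the strand setting of the counting, so its counts are uncertain. In 9 of the 10 lowered genes labelled knockout 2 was the lowest of the 6 libraries (90.0%), against 43.2% of all tested genes with a negative value. Without that library Hkdc1 was the 1 lowered gene that passed, and the adjusted p of the others ran from 0.0508 (Cdh3) to 0.576 (Stard8). Without wild type 6, Hkdc1 and Cdh3 passed and the other 8 did not. Ephb3, Arhgef37, Kcna2, Scube3, Sphk2 and Stard8 also lost their calls without wild type 1, and Ccnjl, Arhgef37, Scube3 and Sphk2 without wild type 3. Ccnjl, Scube3 and Sphk2 lost theirs without labelled knockout 1and4, and Stard8 without labelled knockout 3.

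Outside the clock lists, 24 genes rose. Gzmm, a granzyme-family serine protease gene, stood at 96.3, 320.1 and 101 CPM in the labelled knockout libraries and at 23.5, 39.1 and 30.6 CPM in wild type (log2 2.47, SE 0.36, adjusted p 0.00165; edgeR). Labelled knockout 2 was at more than the other labelled knockout libraries together, yet the groups did not overlap and the call held without it (log2 1.67, edgeR adjusted p 0.00147), at a smaller value. Lonrf1, a RING finger gene, stood at 54.0, 44.2 and 42.0 CPM in the labelled knockout libraries and at 22.2, 25.4 and 19.9 CPM in wild type (log2 1.05, SE 0.18, adjusted p 0.00804; edgeR) and kept its value without labelled knockout 2 (log2 1.09), but lost its call without wild type 6 (edgeR adjusted p 0.0827). Rasl10b, for a RAS-like small GTPase, stood at 62.7, 135 and 54.2 CPM in the labelled knockout libraries and at 11.4, 23.4 and 13.1 CPM in wild type (log2 2.39, SE 0.41, adjusted p 0.00994; edgeR). It was above wild type in every library, and without labelled knockout 2 it was at log2 1.87 with an edgeR adjusted p of 0.0987. Its call was also lost without wild type 1 or 6.

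A pair of raised genes had 0 counts in all 3 wild type libraries. The processed pseudogene Gm9176 was at 2.25, 2.18 and 2.41 CPM in the labelled knockout, at least 61.4-fold higher than a floor of 3 counts over the wild type libraries. Ccdc150, a coiled-coil gene, stood at 0.807, 0.591 and 0.994 CPM, at least 21.5-fold higher than that floor. All labelled knockout libraries held counts of both. Reads of Gm9176 may be shared with its parent gene, so its counts are uncertain. Gm9176 kept its call without any 1 library, and Ccdc150 lost it without wild type 1 or 6 (highest edgeR adjusted p 0.0827).

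Most of the remaining raised genes were highest in labelled knockout 2. Mef2c, a transcription factor gene, stood at 127.1, 188 and 99.2 CPM in the labelled knockout libraries and at 53.5, 65.4 and 39.6 CPM in wild type (log2 1.39). Xiap, for an inhibitor of apoptosis, stood at 504, 958 and 339 CPM in the labelled knockout libraries and at 163, 261 and 191 CPM in wild type (log2 1.55), and Plk5, of the polo-like kinase family, at 220.0, 334 and 201 CPM in the labelled knockout libraries and at 110.1, 112.1 and 92.5 CPM in wild type (log2 1.26). Pdzph1, named for its PDZ and pleckstrin homology domains, stood at 90.5, 189 and 71.4 CPM in the labelled knockout libraries and at 25.1, 44.8 and 31.9 CPM in wild type (log2 1.78). In these 4 genes, as in the summed rod genes, labelled knockout 2 was highest and labelled knockout 3 lowest within the group, and no group overlapped. Without labelled knockout 2 their values were log2 1.10 for Mef2c, 1.04 for Xiap, 1.00 for Plk5 and 1.25 for Pdzph1. Further raised genes included Cadm1 (log2 1.40), the homeobox gene Pbx3 (1.27), the sodium-calcium exchanger gene Slc8a3 (1.86), the BBSome subunit gene Ttc8 (1.01) and the succinate dehydrogenase assembly gene Sdhaf1 (1.00). The translation initiation subunit gene Eif3b rose by log2 0.89, Ltv1, for a factor in making the small ribosomal subunit, by 1.16, and Prpsap2, for a partner of the phosphoribosyl pyrophosphate synthetases, by 1.08. The last 7 raised genes were Pdik1l (log2 1.44), Iqcg (1.59), Zfp59 (1.98), Gm15706 (1.90), Gm49463 (1.57), Traf3ip3 (1.83) and Ccdc85b (1.23). Gm49463 lies antisense to Cyb5r3, and Iqcg and Ccdc85b overlap Lrch3 and Fosl1, so the counts of these genes are uncertain. Every gene named in this paragraph lost its call without labelled knockout 2 and without wild type 6, with an edgeR adjusted p of up to 0.906 (Traf3ip3). All but Mef2c, Plk5, Pdik1l and Cadm1 also lost it without wild type 1, and Eif3b, Iqcg, Zfp59, Gm49463, Traf3ip3, Slc8a3, Ttc8 and Sdhaf1 also without wild type 3.

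Labelled knockout 2, the library with the most rod RNA, was also the highest library for most raised genes outside the clock lists. It was so in 20 of these 24 genes (83.3%), against 5 of the 12 raised clock genes (41.7%) and 46.0% of all tested genes with a positive value. The median of the 24 was log2 1.50 as tested, 1.09 without labelled knockout 2 and 0.91 once the rod score was a term of the fit, and 4 and 3 of them passed in those settings. The median of the 12 raised clock genes was log2 1.20, 1.22 and 1.28, and 7 passed in either setting. All 36 kept a positive value in both, and the value of Zfp59 was 2.11 with the rod score against 1.98 as tested. The 10 lowered genes had medians of log2 -1.19, -0.94 and -0.82, and 1 of them, Hkdc1, passed in either setting. The passing genes that also passed with the rod covariate were Hkdc1, Ciart, Dbp, Nr1d2, Usp2, Per2, Gm9176, Gzmm, Tsc22d3, Ccdc150 and Tef. Beyond these settings the part of rod RNA in the rises was not tested.

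**Figure D3:**
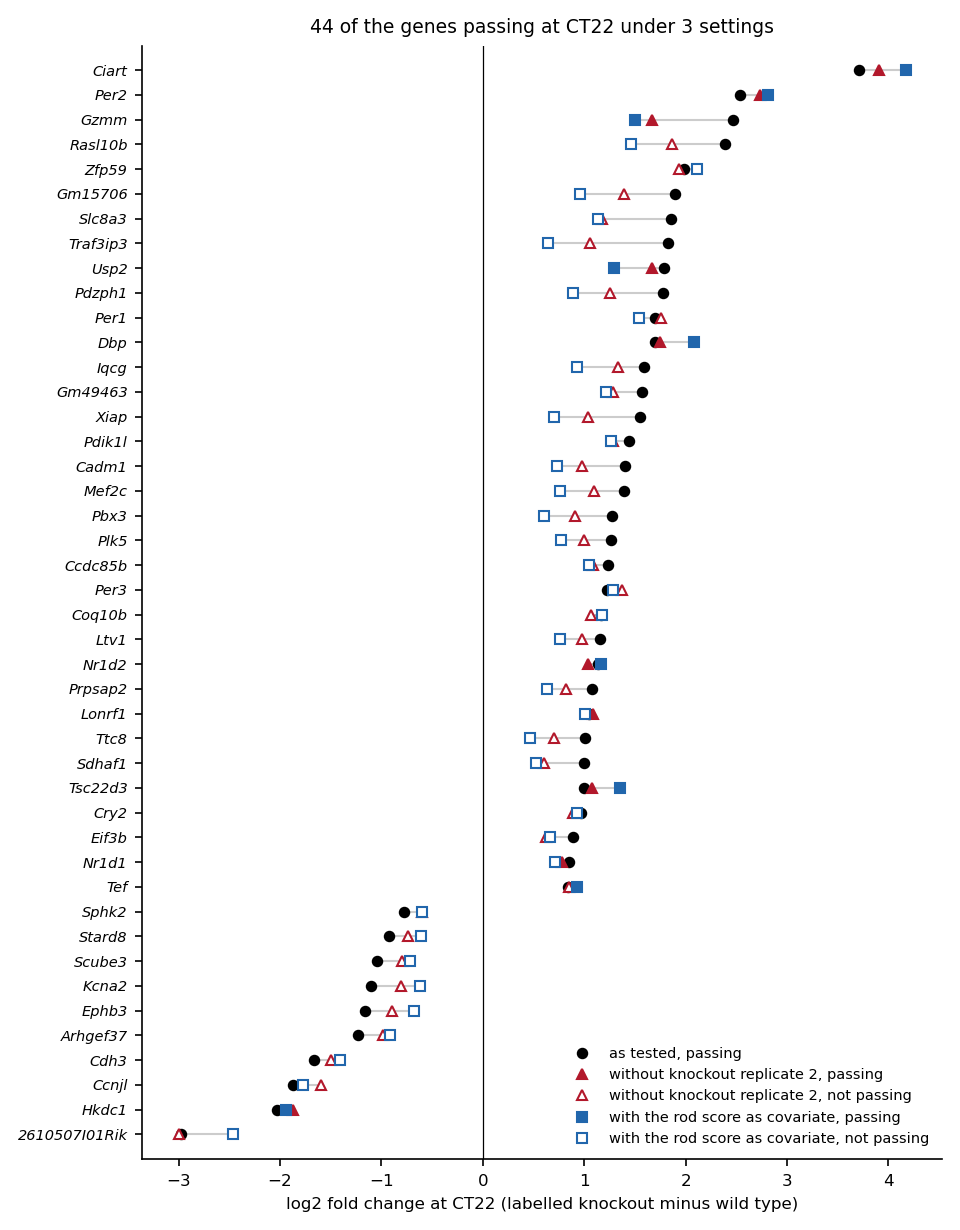
Log2 fold change at CT22 (x axis, labelled knockout minus wild type) of 44 passing genes as tested (black), without labelled knockout replicate 2 (red triangles) and after adding the rod score to the model (blue squares), filled where the edgeR adjusted p is under 0.05. Values of most raised genes outside the clock lists, such as Gzmm and Slc8a3, lie nearer 0 in both alternatives, while those of Ciart, Per2 and Dbp do not. Gm9176 and Ccdc150 are left out because wild type had 0 counts.

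All 24 rod markers had a positive value at CT22, 22 with an unadjusted p under 0.05 and 0 passing in edgeR's test after adjustment. DESeq2 called Sag and Grk1 among them, and limma voom called none. Their median was log2 1.11, and 0.52 without labelled knockout 2. Gnat1, for the rod transducin subunit, stood at 17410, 35970 and 11340 CPM in the labelled knockout libraries and at 8121, 15920 and 6072 CPM in wild type (log2 1.10, adjusted p 0.248; edgeR). Wild type 3 lay above labelled knockout 3, so the groups overlapped. The summed CPM of the rod list was 53330, 110400 and 35190 in the labelled knockout and 24610, 45360 and 21130 in wild type, a mean difference of 35933 with an exact two-sided permutation p of 0.2, where 3 libraries against 3 cannot give less than 0.1. Without labelled knockout 2 the difference was 13896. Of the 10 cone markers 9 were positive, and of the 20 inner retina markers 14, with medians of log2 0.85 and 0.59 and 0 passing in edgeR's test. Without labelled knockout 2 these medians were 0.48 and 0.37. DESeq2 called the cone marker Cngb3 as higher. No rod, cone or endothelial marker was at 0 in any of the 6 libraries.

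Markers of the tissue behind the RPE pointed the other way. All 14 endothelial, 12 mural cell and 12 fibroblast markers had a negative value, with medians of log2 -0.53, -0.64 and -0.65. Without labelled knockout 2 these medians were -0.27, -0.35 and -0.47, and with the rod covariate they were 0.22, -0.03 and -0.06. None passed edgeR's test, 11 of the 38 had an unadjusted p under 0.05, and DESeq2 called Vwf alone. The summed endothelial CPM was 995, 552 and 1148 in the labelled knockout and 1639, 839 and 1593 in wild type. Labelled knockout 2 was lowest, and wild type 3 lay below labelled knockout 1and4 and 3. Vwf, the von Willebrand factor gene, stood at 40.1, 20.4 and 43.6 CPM in the labelled knockout libraries and at 88.7, 35.3 and 83.5 CPM in wild type (log2 -1.00, adjusted p 0.192; edgeR). Melanocyte and Schwann cell markers were negative in 9 of 10, with 0 passing in edgeR's test. Their median was log2 -0.55, and -0.38 without labelled knockout 2 or -0.20 with the rod covariate. Of these 10, 4 had an unadjusted p under 0.05, and 4 had every labelled knockout library below every wild type library. Such separation held for 4.79% of all tested genes. Kit stood at log2 -0.86 and Cdh19 at log2 -2.25, of which DESeq2 called Cdh19. Immune markers split 8 positive to 9 negative, blood markers 5 to 1 and muscle markers 5 to 5, with 0 passing by any of the 3 tools and 1 unadjusted p under 0.05, in the immune list. With the mean of the endothelial, mural cell and fibroblast markers as a covariate, a setting added after the data were seen, 15 genes passed at CT22 and 14 of them were among the 46. The part of these cells in the results was not tested.

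**Figure D4:**
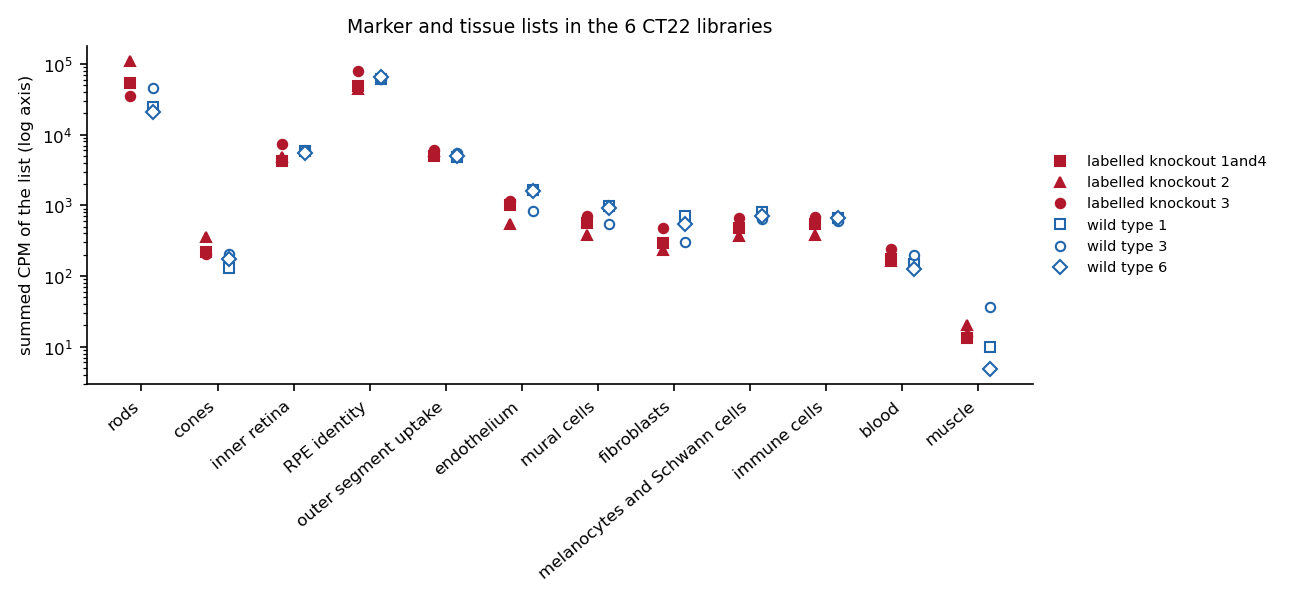
Summed CPM on a log axis of 12 marker and tissue lists in the 6 CT22 libraries, labelled knockout filled red and wild type open blue, with marker shape giving the replicate. Labelled knockout 2 (triangle) is the highest library for rods and the lowest for endothelium, mural cells, fibroblasts and RPE identity.

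No gene for taking up or digesting outer segments passed edgeR's test at CT22. Of all genes tested 0.227% passed, so 0 in lists of this size is near that share. Of 26 uptake genes, 4 had an unadjusted p under 0.05, against 2568 of all 20275 genes. DESeq2 called 1 of the 26, Myo7a, which was lower. In all, 9 had a positive and 17 a negative value, with a median of log2 -0.06 that was 0.06 without labelled knockout 2. The receptor gene Mertk was at 213, 122.8 and 222 CPM in the labelled knockout libraries and at 201, 189 and 204 CPM in wild type (log2 -0.09, adjusted p 0.914; edgeR). The genes of its ligands, Gas6 and Pros1, were at log2 0.14 and -0.43. Myo7a, for the myosin that moves phagosomes and melanosomes, was the gene of this list with the lowest p. It was at 294, 133.7 and 222 CPM in the labelled knockout libraries and at 455, 333 and 348 CPM in wild type, without overlap (log2 -0.81, adjusted p 0.151; edgeR), and at log2 -0.55 without labelled knockout 2. Tulp1 and Tub, ligand genes that photoreceptors also express, stood at log2 1.09 and 0.84, and at 0.00 and -0.17 with the rod covariate. Of 38 phagosome and lysosome genes, 21 were positive, 2 had an unadjusted p under 0.05 and 0 passed by any of the 3 tools, with a median of log2 0.02, or 0.11 without labelled knockout 2. Lamp1 and Lamp2, for lysosomal membrane proteins, stood at log2 0.01 and 0.09, the cathepsin gene Ctsd at -0.10 and Mreg, for melanoregulin, at 1.23 (edgeR adjusted p 0.213).

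No RPE identity gene passed by any of the 3 tools, and 1 had an unadjusted p under 0.05. In edgeR's test 0.227% of all genes passed, so 0 in a list of this size is near that share. Of 28 RPE identity genes, 7 were positive and 21 negative, while 52.7% of all tested genes were positive. Their median of log2 -0.10 turned to 0.05 without labelled knockout 2 and to 0.24 with the rod covariate. Their summed CPM was 48000, 43560 and 80420 in the labelled knockout and 62110, 61000 and 65450 in wild type, so the labelled knockout libraries held both the lowest and the highest value. Mitf, a transcription factor gene of pigment cells, stood at log2 -0.49 and Slc16a8, for the lactate transporter of the RPE, at -0.42 (edgeR adjusted p 0.326 and 0.504). Visual cycle genes were negative in 12 of 13, with Rlbp1 at log2 -0.24, Lrat at -0.15 and Rgr at -0.43, and melanin and melanosome genes in 10 of 18, with 0 passing by any of the 3 tools and 0 and 2 with an unadjusted p under 0.05. The visual cycle median was log2 -0.20, and -0.06 without labelled knockout 2 or 0.14 with the rod covariate. These lists are not separate observations. The RPE identity list shares Rpe65, Lrat, Rlbp1, Rdh5, Ttr and Stra6 with the visual cycle list, and Tyr, Tyrp1, Dct and Pmel with the melanin list. Of 33 tested ion and water transport genes, 1 rose, the exchanger gene Slc8a3, at 32.6, 76.4 and 21.8 CPM in the labelled knockout libraries and at 8.46, 13.3 and 14.1 CPM in wild type. Labelled knockout 2 held more than the other labelled knockout libraries together, and without it Slc8a3 was at log2 1.18 (edgeR adjusted p 0.609).

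Among the metabolic lists, of 25 glycolysis genes 17 were positive and 9 of these had an unadjusted p under 0.05, yet the 1 that passed was Hkdc1, which fell. Ldha, for lactate dehydrogenase, stood at 685, 1318 and 484 CPM in the labelled knockout libraries and at 258, 581 and 273 CPM in wild type (log2 1.16, adjusted p 0.178; edgeR). Pgam1, for phosphoglycerate mutase, stood at 55.6, 104 and 49.7 CPM in the labelled knockout libraries and at 31.0, 48.5 and 25.6 CPM in wild type (log2 0.99, adjusted p 0.162; edgeR). The list's median was log2 0.34, and -0.10 with the rod covariate or 0.17 without labelled knockout 2. Nuclear-encoded oxidative phosphorylation genes were positive in 26 of 30, with 8 unadjusted p under 0.05, 0 passing by any of the 3 tools and a median of log2 0.20 that was 0.02 without labelled knockout 2. Labelled knockout 2 had the highest summed CPM of both lists, and the part of rod RNA in them was not tested beyond these settings. Fatty acid oxidation (7 of 20 positive), cholesterol (13 of 19), heat shock and cold-inducible (11 of 12) and immediate early genes (10 of 13) had 0 passing by any of the 3 tools, and between 1 and 2 unadjusted p under 0.05 each. Ppara, the nuclear receptor gene of fatty acid use, was at log2 -0.96, Dnajb1 at 0.58 and Fos at 0.38.

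The difference at CT22 was next set against the same difference at CT19, CT1 and CT10, each in its own 6 libraries. All 12 raised clock genes were also positive at CT19, 11 at CT1 and 5 at CT10, with medians of log2 1.05, 1.12 and -0.13. Of all tested genes positive at CT22, 55.8%, 35.3% and 65.9% were positive at those times. The 24 other raised genes were positive in 23, 9 and 22, with medians of log2 0.52, -0.50 and 0.50. The 10 lowered genes were negative in 10, 5 and 7, against 59.4%, 35.0% and 56.1% of all genes negative at CT22. Passing at those times were 5, 10 and 0 of the 12 raised clock genes, 3, 1 and 1 of the 24 others and 1, 1 and 1 of the lowered genes, against 0.0691%, 0.533% and 0.0345% of all genes tested in either direction. In wild type, Ciart was at 2.46 ± 0.773 CPM (mean ± SD, n = 3) at CT22 and 55.3 ± 22.3 CPM at CT10. In the labelled knockout it was at 32.4 ± 10.8 and 27.8 ± 4.03 CPM, with its mean above wild type at CT22 and below it at CT10. Hkdc1 in wild type was at 46.4 ± 10 CPM at CT19, 82.1 ± 12.8 at CT22, 39.6 ± 2.88 at CT1 and 23.4 ± 5.26 at CT10. The labelled knockout stayed between 20.1 ± 4.21 CPM at CT22 and 28.9 ± 6.84 CPM at CT1.

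Tested against the mean of the other times, the CT22 difference of 2 genes was distinct (0.00986% of genes tested). Hkdc1 differed by log2 -1.69 (SE 0.24; edgeR adjusted p 0.0039) and Pdzph1 by log2 2.22 (SE 0.36; edgeR adjusted p 0.0283). At CT22 Pdzph1 had a wild type mean of 33.9 ± 10 CPM and a labelled knockout mean of 116.9 ± 63.0 CPM, and at CT1 the means were 99.1 ± 21.7 and 40.4 ± 8.63 CPM. The rod score at CT22 was 10.126, 11.153 and 9.605 in the labelled knockout and 9.026, 9.921 and 8.888 in wild type. At CT1 it was 9.478, 9.371 and 9.541 against 10.941, 10.573 and 10.445, so it also changed direction. With the rod covariate Pdzph1 did not pass at CT22. The contrast against the other times was also fitted with that covariate, and its values are not reported here. The part of rod RNA in the Pdzph1 difference was not tested beyond these settings. Leaving out single libraries gave between 1 and 7 such genes, 1 without labelled knockout 2 or wild type 6 and 7 without labelled knockout 3. Against the difference at CT10 alone, 10 genes were distinct (0.0493%). Among them were Ciart (log2 4.70), Per2 (3.04), Dbp (2.02), Per3 (1.95), Nr1d1 (1.08), Hkdc1 (-2.27) and Cdh3 (-2.11). Without labelled knockout 1and4 there were 6 such genes.

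**Figure D5:**
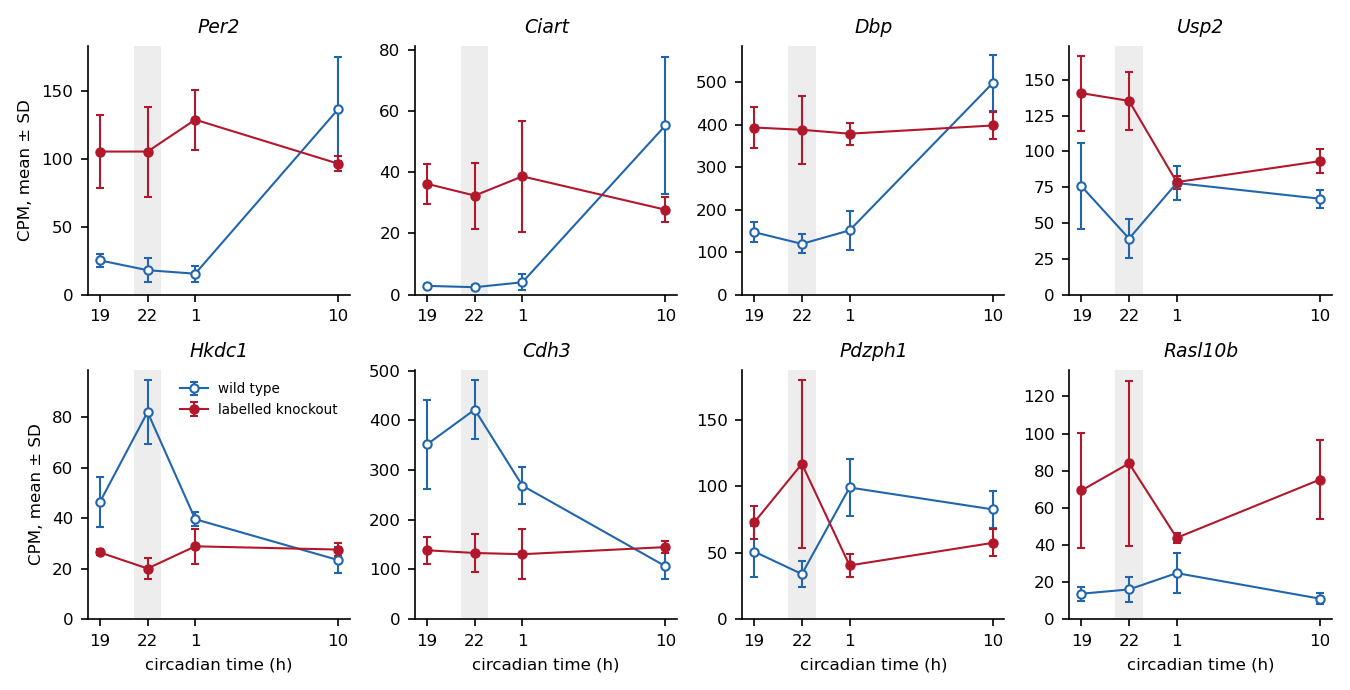
CPM (mean ± SD, n = 3 libraries per point) of 8 genes at CT19, CT22 (shaded), CT1 and CT10, wild type open blue and labelled knockout filled red. Wild type Per2, Ciart and Dbp are low through CT1 and high at CT10, while wild type Hkdc1 and Cdh3 are highest at CT22. The labelled knockout means of these 5 genes span a narrower range.

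Passing genes were also counted near the altered loci. Within 20 Mb of Per1 on chromosome 11, 3 of 668 other tested genes passed (0.449%, against 0.227% of all), namely Prpsap2, Rasl10b and 2610507I01Rik. Within 20 Mb of Per2 on chromosome 1, 0 of 251 passed. A further 70 genes, 53 of them positive, had an edgeR adjusted p from 0.05 to 0.10. Those with the lowest p included Unc45b, for a myosin chaperone (log2 -1.61), Tctex1d2, for a dynein light chain (1.19), Mmd (1.03), Negr1, for a neuronal adhesion protein (1.32), Hpcal1, for a calcium sensor (1.32), and Syne1, for a nuclear envelope protein (-0.67).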

How the data were processed

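The deposited table holds raw counts of reads per gene for 24 libraries, which the authors made before deposit. Trimmomatic 0.32, HISAT2 2.1.0, Cufflinks, HTSeq 0.11 and GRCm38.p6 are named per the submitters' processing notes, and which step each served, the gene annotation's release and the strandedness of counting are not given in the sources used here. Of 54232 identifiers, 54165 were matched to a symbol and 0 columns lacked a sample. Depth at CT22 was 16245067 to 28858797 counts, and precision is also limited by 3 libraries per group.

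Counts were scaled by TMM and filtered with edgeR's filterByExpr (minimum count 10), leaving 20275 genes. The 8 groups of genotype and time were fitted together (16 residual degrees of freedom, edgeR 4.0.16, limma 3.58.1, R 4.3.3), and each contrast was tested by the robust quasi-likelihood test with Benjamini-Hochberg adjustment over all genes and a threshold of 0.05. No contrast of this main fit used a covariate, and the fits with one are among the alternatives below. The code was tested on simulated data. No 2 libraries of a group were alike within sampling noise.

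Named genes are those passing at CT22, the clock list members, the first 3 members and the 3 with the lowest p of each other list, and up to 10 genes each of the near-threshold set and the time contrasts. There are 30 lists, and members, lists and tests were chosen with earlier results of these data known. Clock output gene Ccrn4l was not matched. A few genes that this rule names are not reported here. Alternatives were other scaling, filters, DESeq2 1.42.0, limma voom, covariates, a replicate block and leaving out each library. Promoters came from RefSeq (GRCm38.p6), and gene coordinates are of GRCm38.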

Additional observations from a re-analysis of the deposited data

Results flagged for a closer look

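For 10 genes the difference between labelled knockout and wild type at CT22 differed from that at other times (edgeR, Benjamini-Hochberg adjusted p under 0.05). Set against the mean of the other times, the log2 difference was -1.69 for Hkdc1 and 2.22 for Pdzph1, and the latter no longer passed without labelled knockout 2. Set against CT10 it was 4.70 for Ciart, -2.27 for Hkdc1, 2.02 for Dbp, 3.04 for Per2, -2.11 for Cdh3, 1.95 for Per3, 1.08 for Nr1d1 and 2.31 for Pdzph1.

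Rasl11a, for a RAS-like small GTPase, differed from CT10 by log2 -1.91 although it did not pass at CT22 itself. At CT22 its wild type mean was 19.5 ± 1.57 CPM and its labelled knockout mean 10.4 ± 2.66 CPM (± SD, n = 3), and at CT10 these were 5.50 ± 0.691 and 11.1 ± 1.49 CPM. The fitted difference of the pseudogene Gm9176 was log2 10.05. It depends on how the fit treats groups at 0, since Gm9176 had 0 counts in every wild type library at CT22, and is no bound. Its mean at CT10 was 3.84 ± 1.93 CPM in wild type and 1.58 ± 0.190 CPM in the labelled knockout.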

How the results depend on the processing

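The number of genes passing at CT22, 46 as tested, was 808 with no filter on low counts, 313 with DESeq2, 14 with limma voom and 14 when the rod score was a covariate. It was 15 with the choroid score (the mean of the endothelial, mural cell and fibroblast markers) as a covariate, an alternative chosen after seeing the data, 6 from the 6 CT22 libraries alone and 13 from libraries of 1 eye. Over the libraries left out it ran from 12 to 298. Hkdc1, Ciart, Dbp and Per2 passed in all 15 planned settings. With a mean of at least 5 CPM, 58.7% of calls were higher, against 78.3% as tested. The cause of these shifts was not tested. The direction of all 46 was the same in every setting in which they were tested.

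A fit with the title number as a replicate block, over all 8 groups, called 4 genes at CT22, 5 against CT10 and 0 against the other times in edgeR's test (1291 with an unadjusted p under 0.05). At CT22 the groups share number 3, and number 1 of wild type recurs only within the knockout pool 1and4, and no label says that a number marks a shared animal or batch. Against the mean of the other times, 2 genes as tested became 533 with no filter, 38 with DESeq2 and 1 with limma voom, and 1 to 7 over the libraries left out. Against CT10, 10 became 252 with no filter and 22 with DESeq2, and 6 to 14 over the libraries left out. The mean rod difference ran from 13896 to 51488 CPM over the libraries left out.

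Among the 37 clock list genes that did not pass, signs changed in 12, none with an adjusted p below 0.83 after the change. With the rod covariate, log2 values became 0.23 (Bhlhe40), -0.12 (Rorb), 0.19 (Ccnd1), 0.16 (Csnk1d), -0.13 (Csnk1e), -0.01 (Csnk2a2), 0.01 (Fbxl21), -0.03 (Gsk3b) and 0.40 (Myc). With the choroid covariate they became 0.11 (Bhlhe40), 0.07 (Csnk1d), -0.01 (Csnk1e), 0.18 (Fbxl21) and 0.26 (Myc). With limma voom they became 0.03 (Bhlhe40), 0.12 (Fbxl21) and 0.03 (Pdk4). With at least 5 CPM they became -0.05 (Csnk1e), -0.05 (Csnk2a2), 0.00 (Gsk3b) and -0.06 (Prkaa2). With the replicate block they became 0.09 (Csnk1d), -0.02 (Csnk1e), -0.01 (Csnk2a2) and -0.15 (Prkaa2). From libraries of 1 eye they became -0.24 (Arntl2), -0.01 (Csnk1e), -0.04 (Csnk2a2), 0.07 (Myc) and -0.07 (Prkaa2). With RLE factors, DESeq2 and the CT22 libraries alone, Csnk2a2 was at 0.00 and Prkaa2 at -0.02. Leaving out 1 library gave ranges of log2 -0.23 to 1.08 (Arntl2), -0.18 to 0.16 (Bhlhe40), -0.15 to 0.06 (Csnk1d), -0.01 to 0.07 (Csnk1e), -0.03 to 0.05 (Csnk2a2), -0.23 to 0.22 (Fbxl21), -0.91 to 0.64 (Myc), -0.65 to 0.30 (Pdk4) and -0.14 to 0.18 (Prkaa2).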
